A study of Mus musculus with 8 samples.

Results

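Heat shock and endoplasmic reticulum (ER) stress genes were followed across 8 RNA-seq libraries of mouse prefrontal cortex. The set holds 40 genes, taken by symbol from the 24420 genes that the count tables of all libraries share. Of these, 17 encode cytosolic or nuclear chaperones, cochaperones and heat shock factors, 2 encode the mitochondrial chaperonin, and 21 encode ER chaperones, folding enzymes, degradation factors and ER stress transcription factors. All 40 had enough counts to be tested, among 14809 genes tested in all.

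Romidepsin-treated Shank3-deficient mice, saline-treated Shank3-deficient mice and wild-type mice gave 2, 3 and 3 libraries. The mutants were male heterozygous Shank3+/ΔC mice, in which a deletion in exon 21 removes the C-terminal part of the synaptic scaffold protein Shank3, and the wild-type mice were male littermates. Romidepsin, a histone deacetylase inhibitor, was injected intraperitoneally at 0.25 mg/kg once a day for 3 days, saline likewise, and cortex was collected 1 day after the final dose from mice whose age is 5 to 6 weeks in the sample labels and 5 to 8 weeks in the series text. No treatment is given for wild-type mice, so saline injection and genotype cannot be told apart between the saline group and wild type. Whether each library is a separate animal is not stated, so the p-values below measure only the spread between libraries. The study asked what the Shank3 deficiency changes in cortical gene expression and what romidepsin then does to it.

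The cytosolic heat shock response and the unfolded protein response are the main ways in which a cell answers misfolded protein. In the first, heat shock factor 1 (Hsf1) binds heat shock elements in the promoters of chaperone genes. In the second, sensors in the ER membrane act through the transcription factors Xbp1, Atf6 and Atf4, which bind ER stress response elements or other sites in the promoters of genes for ER chaperones and degradation factors. Splicing of Xbp1 RNA, cleavage of the Atf6 protein and translation of Atf4 RNA carry much of that signal, and gene counts record none of these steps. In neurons, chaperones also serve at synapses without stress, as when the constitutive Hsp70 Hspa8 strips clathrin from vesicles.

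The libraries held between 7783537 and 15156318 reads on genes. Shank3 stood at 315 and 313 CPM, counts scaled to library size, in the romidepsin libraries, 316, 252 and 301 CPM in the saline libraries, and 299, 308 and 348 CPM in the wild-type libraries, and these whole-gene counts also take in reads from the undeleted exons of the mutant copy. The labels give the cell type as neurons, but markers of other cells were present: the 10 astrocyte markers summed to 5664 to 7447 CPM per library, the 10 oligodendrocyte markers to 2996 to 5516 CPM and the 10 microglial markers to 525 to 729.8 CPM, against 7552 to 8456 CPM for the 10 excitatory neuron markers. In such bulk tissue, fewer cells of a type and less RNA per cell cannot be told apart. Wild type 3 and saline 2 stood apart from the other libraries: they held the highest of the 8 values in 21.1% and 20.2% of all tested genes and the lowest in 21.2% and 21.1%.

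Promoter sequences were searched for elements known from heat shock and ER stress genes. The set was picked as such genes, so matches in it were likely from the start. RefSeq promoter windows of GRCm38.p6, from 250 bases before to 50 bases after the annotated start, were matched for 32 of the 40 genes (12 cytosolic, 2 mitochondrial and 18 ER). The ER stress response element, CCAAT and CCACG with 9 bases between them on either strand, was found in 8 of 18 ER genes (Hspa5, Hsp90b1, Dnajc3, Creld2, Calr, Canx, Pdia6 and Syvn1), in 0 of 12 cytosolic genes and in 0.137% of all 27025 genes with a window. Its variant, ER stress response element II (ATTGG and CCACG with 1 base between them), was found in Herpud1 and Dnajb11, 2 of 18 ER genes, and in 0.0444% of all genes. The 250 bases before the start are shown for the 5 ER genes with these elements that had the smallest unadjusted p in any comparison below, 5′ to 3′ on the gene's strand with the element in capitals; in Calr it lies on the opposite strand. They lie at chr8:94386179-94386428 on the + strand (Herpud1), chr19:6046326-6046575 on the + strand (Syvn1), chr8:84846932-84847181 on the - strand (Calr), chr14:118937682-118937931 on the + strand (Dnajc3) and chr2:34771840-34772089 on the + strand (Hspa5).
Herpud1: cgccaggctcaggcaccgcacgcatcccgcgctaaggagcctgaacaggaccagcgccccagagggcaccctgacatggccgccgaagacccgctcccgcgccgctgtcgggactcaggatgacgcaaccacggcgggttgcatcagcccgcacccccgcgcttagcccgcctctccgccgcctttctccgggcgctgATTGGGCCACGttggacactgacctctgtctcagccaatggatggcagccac
Syvn1: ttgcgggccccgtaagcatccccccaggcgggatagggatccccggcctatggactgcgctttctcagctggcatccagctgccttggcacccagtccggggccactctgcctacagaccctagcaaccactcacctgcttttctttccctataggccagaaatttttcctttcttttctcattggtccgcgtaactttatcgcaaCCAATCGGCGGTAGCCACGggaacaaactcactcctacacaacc
Calr: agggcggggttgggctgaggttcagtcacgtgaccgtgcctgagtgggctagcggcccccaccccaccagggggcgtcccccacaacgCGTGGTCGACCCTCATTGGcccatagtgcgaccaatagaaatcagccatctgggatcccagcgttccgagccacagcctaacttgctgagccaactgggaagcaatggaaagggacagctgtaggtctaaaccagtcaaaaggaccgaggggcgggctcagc
Dnajc3: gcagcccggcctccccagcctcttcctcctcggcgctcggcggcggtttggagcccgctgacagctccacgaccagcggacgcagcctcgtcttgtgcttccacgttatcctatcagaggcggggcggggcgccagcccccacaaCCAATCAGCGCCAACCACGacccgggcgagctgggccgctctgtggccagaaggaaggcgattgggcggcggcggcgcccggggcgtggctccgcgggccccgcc
Hspa5: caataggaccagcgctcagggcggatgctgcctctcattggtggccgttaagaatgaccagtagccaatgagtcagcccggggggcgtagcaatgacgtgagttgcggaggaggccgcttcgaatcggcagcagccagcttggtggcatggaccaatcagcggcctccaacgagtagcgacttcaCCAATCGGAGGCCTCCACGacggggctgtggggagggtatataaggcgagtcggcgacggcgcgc

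Heat shock elements were matched in the same windows. The inward pair GAANNTTC was found in 7 of 12 cytosolic genes (Hspa1a, Hspa1b, Hsph1, Dnaja1, Hspb1, Bag3 and Chordc1), in both mitochondrial genes and in 0 of 18 ER genes, against 9.04% of all genes. The outward pair TTCNNGAA was found in 3 of 12 cytosolic genes (Hsph1, Dnajb4 and Chordc1), both mitochondrial genes and 0 of 18 ER genes, against 9.60% of all genes. At such shares few matches would fall among 18 genes, so 0 of 18 does not set the ER genes apart from all genes. The outward pair in 3 of 12 cytosolic genes is likewise a small count. The 3-unit element, an inward pair whose second unit also forms an outward pair with a further GAA, was found in Hsph1, Chordc1, Hspd1 and Hspe1 and in 0.662% of all genes. These matches are descriptions of letters, and no binding was measured. Chosen after the sequences were seen, the promoters of heat shock genes printed here are that of Hspe1 (chr1:55087898-55088147, + strand), whose window overlaps that of its head-to-head neighbour Hspd1 and holds overlapping 3-unit elements, and those of the stress-inducible Hsp70 genes Hspa1a (chr17:34972157-34972406, - strand) and Hspa1b (chr17:34959239-34959488, - strand). Capitals mark the heat shock elements.
Hspe1: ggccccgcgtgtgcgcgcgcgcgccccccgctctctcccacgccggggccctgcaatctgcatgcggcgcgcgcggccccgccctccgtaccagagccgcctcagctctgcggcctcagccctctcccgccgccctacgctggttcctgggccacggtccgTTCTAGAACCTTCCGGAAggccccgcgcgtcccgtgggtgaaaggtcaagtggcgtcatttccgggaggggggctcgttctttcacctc
Hspa1a: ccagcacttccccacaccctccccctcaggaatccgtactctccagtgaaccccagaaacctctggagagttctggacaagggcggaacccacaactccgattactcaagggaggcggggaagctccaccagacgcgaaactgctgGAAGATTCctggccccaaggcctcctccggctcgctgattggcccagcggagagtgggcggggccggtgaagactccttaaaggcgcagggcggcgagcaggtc
Hspa1b: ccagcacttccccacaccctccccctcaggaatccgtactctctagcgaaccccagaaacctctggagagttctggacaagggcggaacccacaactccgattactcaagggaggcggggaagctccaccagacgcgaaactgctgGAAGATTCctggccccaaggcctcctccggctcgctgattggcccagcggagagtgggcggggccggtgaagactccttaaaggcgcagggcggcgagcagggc
The Hspa1a and Hspa1b promoters are identical at 247 of 250 bases. The unfolded protein response element (TGACGTGG) and the C/EBP-ATF element (TGATGNAAT) were found in 0 of the 32 windows, against 0.714% and 1.08% of all genes.

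**Figure D1:**
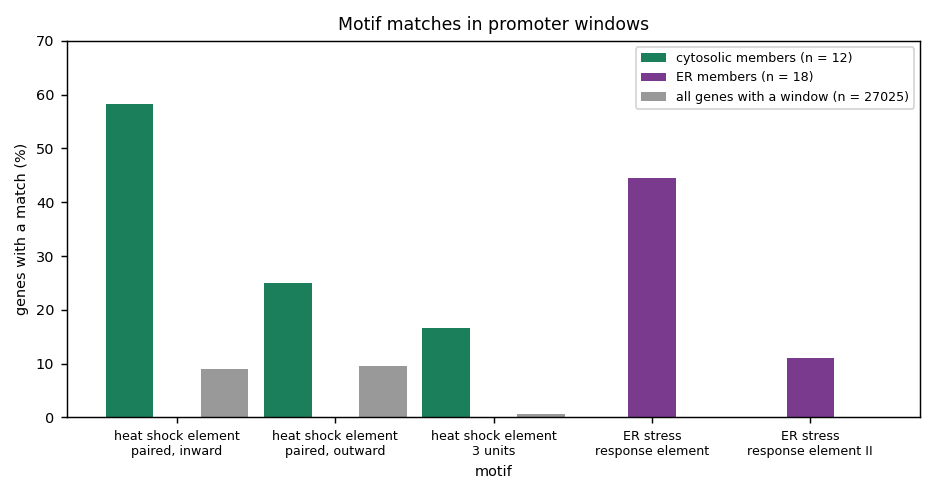
Share of genes (%, vertical axis) whose promoter window holds each motif (horizontal axis), for 12 cytosolic genes (green), 18 ER genes (purple) and all 27025 genes with a window (grey). Heat shock elements have green bars and no purple ones, ER stress response elements purple bars and no green ones, and the grey bars of the ER stress response elements, 0.137% and 0.0444%, are too short to see.

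Across libraries the set ranged from very abundant genes to genes of low abundance. Per kilobase of exon, the constitutive chaperone genes led: Hspa8 stood at 942, 923 and 960.2 CPM per kilobase in the romidepsin, saline and wild-type means, and Hsp90ab1, the constitutive cytosolic Hsp90, at 656, 638 and 638. Hsp90aa1, the stress-inducible Hsp90, followed at 374, 396 and 384 CPM per kilobase, and among ER genes the lectin chaperone gene Calr stood highest, at 209.6, 185 and 205. The inducible Hsp70 genes were near the bottom, beside Bag3, with Hspa1a at 1.88, 2.14 and 2.78 CPM per kilobase and Hspa1b at 2.12, 2.41 and 4.39. Hspa1a and Hspa1b share much of their sequence, and how shared reads were counted is uncertain, so their levels may be understated.

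Within the set, the highest and lowest values gathered in a few libraries. Wild type 2 held the highest value of the 8 libraries in 13 of 21 ER genes (61.9%, against 10.3% of all tested genes), and saline 3 the lowest in 12 of 21 (57.1%, against 12.3% of all tested genes). Among cytosolic genes saline 2 was highest in 9 of 17 (52.9%), while saline 1 and saline 3 were each lowest in 6 of 17 (35.3%). Wild type 3 was highest in only 6 of the 40 genes (15%, against 21.1% of all tested genes). These were Hspa1a, Hspa1b, Hspb1, Bag3, Hspe1 and Syvn1. Romidepsin 2 lay above romidepsin 1 in 35 of 40 genes (87.5%, against 51.7% of all tested genes). Above the wild-type mean stood 5 of the 40 genes in romidepsin 1 and 27 in romidepsin 2; 3, 22 and 5 in saline 1 to 3; and 7, 34 and 14 in wild type 1 to 3, where all tested genes gave 49.6% to 52.3%.

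**Figure D2:**
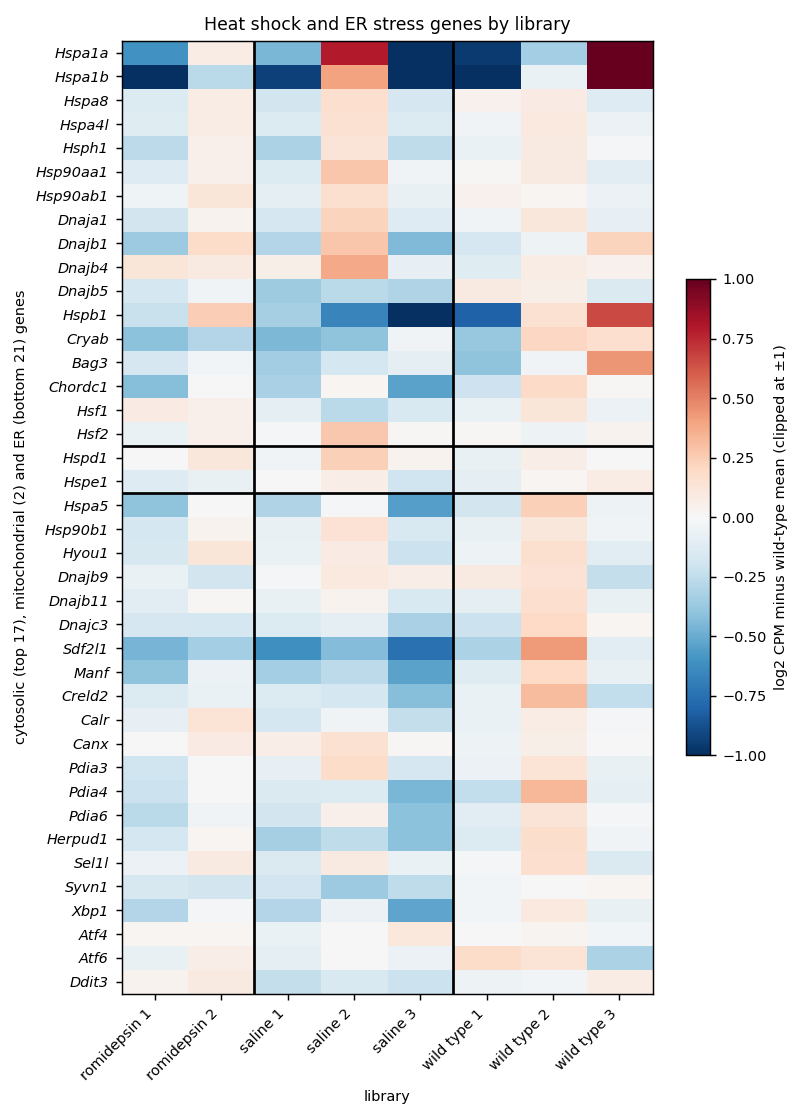
Log2 CPM of each of the 40 genes (rows) minus its wild-type mean, in each library (columns, romidepsin, saline and wild type from left to right), with colours clipped at 1 in either direction. The saline 1, saline 3, romidepsin 1 and wild type 1 columns are mostly blue. So are the ER rows of wild type 3, with 3 of 21 above the wild-type mean. The ER rows of wild type 2 are mostly red, with 20 of 21 above it.

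The cold-inducible RNA-binding protein gene Cirbp lay opposite to most ER genes in wild type 2 and saline 3, but not in every library. It stood at 33.1 and 30.0 CPM in the romidepsin libraries, 37.7, 31.5 and 38.2 CPM in the saline libraries, and 32.5, 22.5 and 25.8 CPM in the wild-type libraries, so that it was lowest in wild type 2, where most ER genes peaked, and highest in saline 3, where most were lowest. In wild type 3 Cirbp was low too, but so were most ER genes, with 3 of 21 above the wild-type mean. Rbm3, another cold-inducible gene, was lowest in wild type 2 as well, at 42.4 CPM, but highest in saline 1, at 65.1 CPM. Neither passed the test in the saline group against wild type (Cirbp log2 fold change 0.41, SE 0.13, edgeR adjusted p = 0.387; Rbm3 0.20, SE 0.13, adjusted p = 0.695). The part of temperature or handling of the tissue in these differences was not tested.

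**Figure D3:**
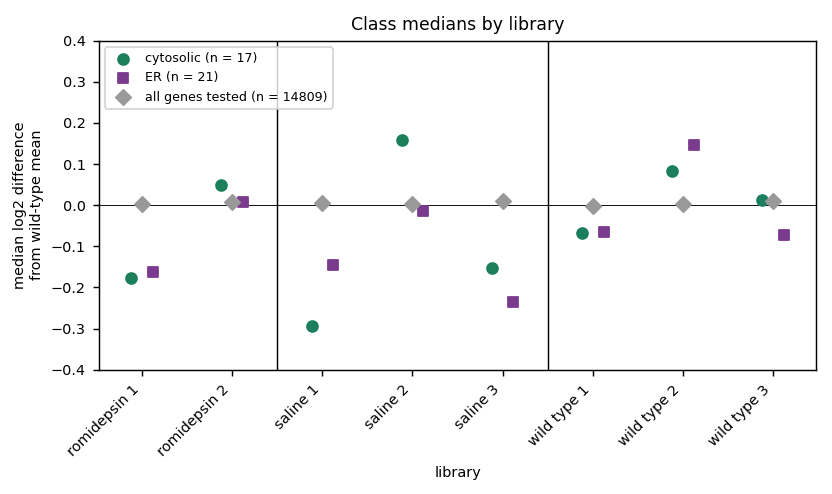
Median log2 difference from the wild-type mean (vertical axis) over the 17 cytosolic genes (circles), the 21 ER genes (squares) and all 14809 genes tested (diamonds), in each library (horizontal axis). The medians of all genes lie near 0, the ER median is highest in wild type 2 (0.15) and lowest in saline 3 (-0.24), and the cytosolic median is lowest in saline 1 (-0.29) and highest in saline 2 (0.16).

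In the saline group against wild type, ER genes were mostly lower and none passed the test. Of the 21 ER genes, 18 were lower in the saline group, with a median log2 fold change of -0.17, against 0.0047 over all tested genes. Of the 17 cytosolic genes, 13 were lower, with a median of -0.14. The smallest p-values belonged to the cochaperone gene Dnajb5 and to the ER folding and degradation genes Sdf2l1, Herpud1, Syvn1 and Manf. At an edgeR quasi-likelihood adjusted p under 0.05, 0 of 40 genes passed, as 0.00675% of all tested genes did (1 gene, not in the set), and 0 passed with DESeq2 or limma-voom. At an unadjusted p under 0.05, 8 of the 40 genes passed, which is 20% of them, all lower, against 8.39% of all tested genes; 6 of these 8 were ER genes. All 3 saline values lay below all 3 wild-type values in 7 of the 40 genes (17.5%), against 6.36% of all tested genes, and all above in 0, against 6.26%. The 40 genes were chosen with earlier results of these data known. Such shares, here and below, are therefore descriptions and no test of the set.

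These medians depend on single libraries. Without wild type 2 the ER median was -0.08, with 13 of 21 lower, and without saline 3 it was -0.11. The cytosolic median was -0.05 without saline 1, -0.06 without wild type 3, -0.08 without saline 3, -0.21 without wild type 1 and -0.27 without saline 2, when 17 of 17 were lower.

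Among stress-induced proteins of the ER lumen, Sdf2l1, which works with the ER J-domain protein Dnajb11 (gene at chr16:17130138-17132383 of GRCm38, as for all gene positions given here), had 12.8 and 14.0 CPM in the romidepsin libraries, 11.5, 13.1 and 10.5 CPM in the saline libraries, and 14.2, 23.9 and 16.4 CPM in the wild-type libraries. Every mutant library lay below every wild-type library, the highest value being that of wild type 2. The saline mean was 11.7 ± 1.30 CPM and the wild-type mean 18.2 ± 5.06 CPM (SD, n = 3 each), or -0.63 on the log2 scale (SE 0.18, adjusted p = 0.359), which was -0.39 without wild type 2. Manf, a secreted protein that protects cells under ER stress (chr9:106838312-106891979), had 44.9 and 57.2 CPM in the romidepsin libraries, 47.0, 49.7 and 41.0 CPM in the saline libraries, and 54.6, 68.4 and 56.5 CPM in the wild-type libraries. The saline values lay below all wild-type values, and the romidepsin libraries fell on either side of that gap (saline against wild type -0.38, SE 0.11, adjusted p = 0.378). Creld2, the remaining gene of this kind, averaged 16.5, 14.9 and 17.9 CPM in the romidepsin, saline and wild-type groups, with overlapping saline and wild-type values.

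Herpud1 and Syvn1 serve ER-associated degradation, in which misfolded proteins are drawn out of the ER, tagged with ubiquitin and destroyed. Herpud1 encodes a membrane adaptor of that machinery (chr8:94386438-94395377) and carries the ER stress response element II shown above. It had 44.2 and 50.7 CPM in the romidepsin libraries, 39.6, 41.9 and 37.4 CPM in the saline libraries, and 45.4, 56.4 and 48.6 CPM in the wild-type libraries. The 3 saline libraries were the 3 lowest of all 8 (saline against wild type -0.34, SE 0.10, adjusted p = 0.369). Syvn1, the ubiquitin ligase Hrd1 at the centre of the machinery (chr19:6046576-6053712), had 48.9 and 48.2 CPM in the romidepsin libraries, 48.0, 42.5 and 45.8 CPM in the saline libraries, and 53.7, 55.0 and 55.5 CPM in the wild-type libraries. The 3 groups did not overlap at any point, in the order saline, romidepsin, wild type (saline against wild type -0.27, SE 0.08, adjusted p = 0.378). Sel1l, the partner protein of Syvn1, averaged 245, 237 and 244 CPM in the romidepsin, saline and wild-type groups, and its values overlapped.

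Transcription factors carry the ER stress signal to the nucleus. Xbp1 had 85.2 and 104 CPM in the romidepsin libraries, 85.4, 100.5 and 72.3 CPM in the saline libraries, and 102, 112 and 99.4 CPM in the wild-type libraries. Saline 2 reached into the wild-type range, and the other 2 saline values lay under it (saline against wild type -0.28, SE 0.11, adjusted p = 0.518, and -0.18 without saline 3). Ddit3, which encodes CHOP, a factor that promotes cell death under lasting ER stress, had 27.5 and 28.6 CPM in the romidepsin libraries, 22.7, 24.1 and 23.1 CPM in the saline libraries, and 25.9, 26.4 and 28.2 CPM in the wild-type libraries. Its saline values were the 3 lowest and lay close together. Atf4 averaged 101, 99.8 and 98.9 CPM in the romidepsin, saline and wild-type groups, and Atf6 131, 127 and 133 CPM, each with overlapping values.

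Chaperones of the ER lumen bind unfolded chains directly. Hspa5 (BiP), the ER Hsp70 and the usual readout of the unfolded protein response, had 328 and 434 CPM in the romidepsin libraries, 351, 429 and 296 CPM in the saline libraries, and 380.0, 510.2 and 417 CPM in the wild-type libraries. The values interleaved, and its saline mean was 0.823-fold of the wild-type mean with a 95% interval of 0.653 to 1.04 (adjusted p = 0.645). Hsp90b1 (Grp94), the ER Hsp90, had 374 and 435 CPM in the romidepsin libraries, 403, 469 and 381 CPM in the saline libraries, and 403, 458 and 413 CPM in the wild-type libraries. Here the group means differed by less than the spread within groups, at 0.984-fold (0.857 to 1.13) for saline against wild type. Hyou1 (Grp170), which exchanges nucleotide on Hspa5, averaged 139.9, 135 and 142 CPM in the romidepsin, saline and wild-type groups. About 21.6% of Hsp90b1's exonic bases are shared with other annotated genes, the longest stretch with 1810014B01Rik on the opposite strand, which stood at 2.93 to 4.43 CPM.

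J-domain partners of Hspa5 drive its cycle of ATP hydrolysis. Dnajc3 (p58IPK), which also dampens the ER stress kinases, had 73.4 and 72.7 CPM in the romidepsin libraries, 75.0, 77.2 and 65.8 CPM in the saline libraries, and 71.0, 94.5 and 83.3 CPM in the wild-type libraries, with the saline and wild-type values overlapping through wild type 1. Dnajb9 (ERdj4), which restrains the sensor Ire1, had 36.3 and 33.4 CPM in the romidepsin libraries, 37.4, 40.8 and 39.9 CPM in the saline libraries, and 40.5, 42.1 and 32.2 CPM in the wild-type libraries. Wild type 3 and both romidepsin libraries lay below the saline range for Dnajb9. Dnajb11 (ERdj3) averaged 59.9, 59.1 and 61.9 CPM in the romidepsin, saline and wild-type groups.

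Glycoprotein folding is handled by the lectin chaperones and the disulfide isomerase Pdia3. Calr had 423 and 493 CPM in the romidepsin libraries, 395, 437 and 379.9 CPM in the saline libraries, and 427, 472 and 445 CPM in the wild-type libraries, so that saline 2 lay within the wild-type range. Canx, its membrane-bound relative, averaged 402, 412 and 391 CPM in the romidepsin, saline and wild-type groups, 1 of only 3 ER genes that were higher in the saline group, with Dnajb9 and Atf4. Pdia3 averaged 212, 224 and 227 CPM and Pdia4 57.5, 52.2 and 62.6 CPM in the same order, all with overlap. Pdia6 had 128 and 150.3 CPM in the romidepsin libraries, 135, 159 and 116 CPM in the saline libraries, and 142, 169 and 152 CPM in the wild-type libraries, which also overlapped.

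**Figure D4:**
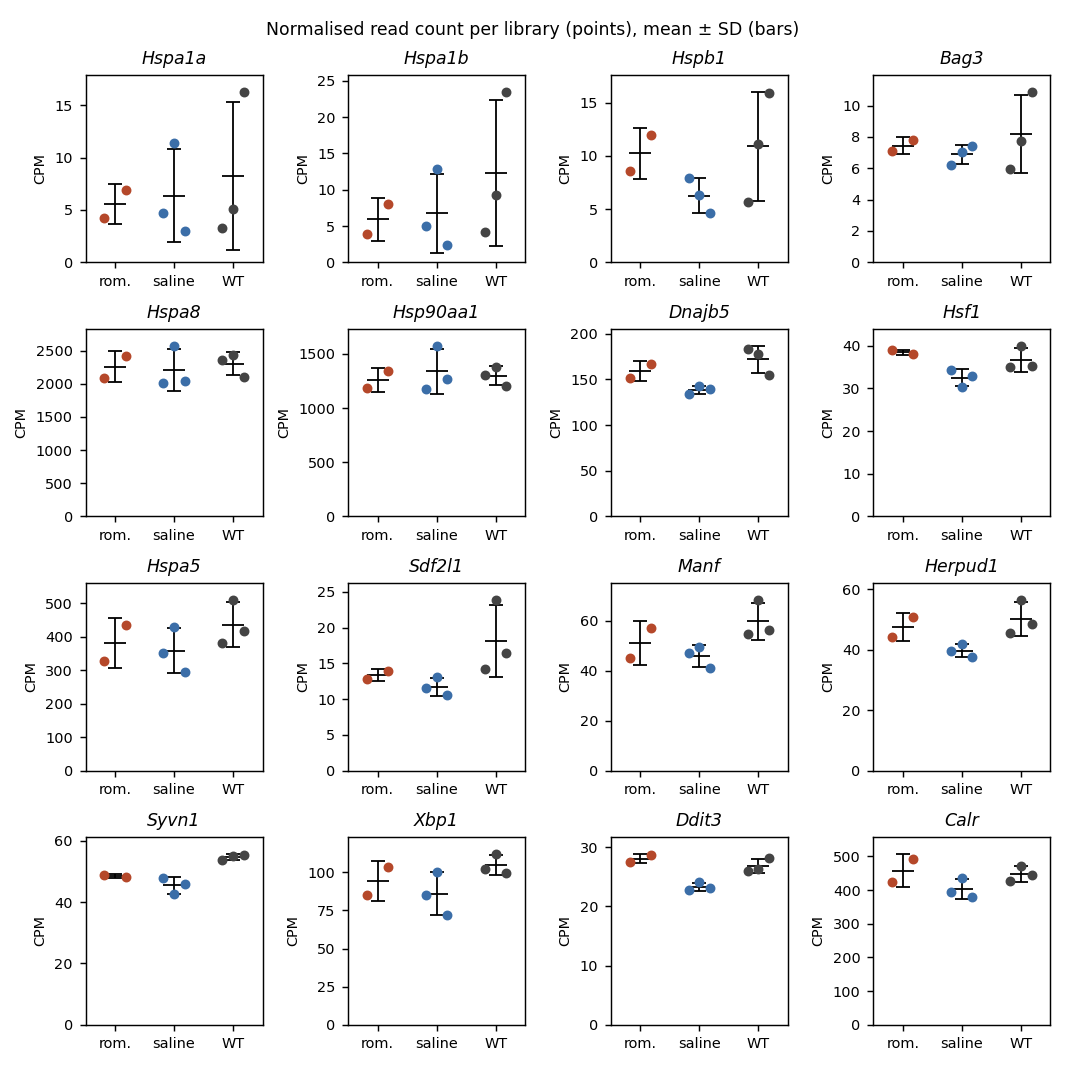
CPM (vertical axes, from 0) of 16 of the 40 genes in each library, in romidepsin-treated (rom.), saline-treated and wild-type (WT) groups from left to right; points are libraries, and bars give the mean ± SD of 2, 3 and 3 libraries. Dnajb5, Hsf1, Sdf2l1, Manf, Herpud1, Syvn1 and Ddit3 have saline points entirely below the wild-type points. Hspa1a and Hspa1b spread as widely within the saline and wild-type groups as between them.

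Of the cytosolic genes, Dnajb5, a J-domain cochaperone that stimulates Hsp70 (chr4:42949814-42959425), had the smallest p of the whole set. It had 152 and 167 CPM in the romidepsin libraries, 134, 142 and 139 CPM in the saline libraries, and 183, 178 and 155 CPM in the wild-type libraries. The saline values were the 3 lowest of the 8 and varied little. Means were 139 ± 4.29 CPM in the saline group and 172 ± 14.9 CPM in wild type (SD, n = 3 each), 0.806-fold with a 95% interval of 0.716 to 0.907 (log2 fold change -0.31, SE 0.08, adjusted p = 0.302). Without wild type 3, whose value is the lowest of that group, Dnajb5 alone of the 40 genes passed (log2 fold change -0.39, adjusted p = 0.0284), in a fit in which 0.369% of genes passed. Its relatives Dnaja1, Dnajb1 and Dnajb4 averaged 350.3, 365 and 369 CPM, 88.3, 85.1 and 93.0 CPM, and 78.9, 80.2 and 73.4 CPM in the romidepsin, saline and wild-type groups, with overlapping saline and wild-type values.

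The stress-inducible Hsp70 genes varied more between libraries than any other member. Hspa1a (chr17:34969190-34972156) had 4.24 and 6.89 CPM in the romidepsin libraries, 4.72, 11.4 and 2.95 CPM in the saline libraries, and 3.28, 5.12 and 16.3 CPM in the wild-type libraries. Hspa1b (chr17:34956436-34959238) had 3.84 and 8.03 CPM in the romidepsin libraries, 4.98, 12.9 and 2.44 CPM in the saline libraries, and 4.13, 9.26 and 23.5 CPM in the wild-type libraries. In both, wild type 3 was highest, saline 2 next and saline 3 lowest, and the highest library was 9.65-fold above the lowest for Hspa1b. The saline mean of Hspa1a was 0.770-fold of wild type, with a 95% interval of 0.242 to 2.45, so the direction of any difference was not resolved. These genes share much of their sequence. Of the 50-base stretches of the Hspa1a transcript, 58.8% also occur in Hspa1b, and 62.3% the other way. For 100-base stretches the shares are 47.1% and 49.9%. How the authors' counting treated shared reads is uncertain.

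The remaining Hsp70 and Hsp90 genes include the most abundant of the set. Hspa8 had 2091 and 2421 CPM in the romidepsin libraries, 2018, 2573 and 2039 CPM in the saline libraries, and 2362, 2432 and 2102 CPM in the wild-type libraries; saline 2 was the highest and saline 1 the lowest of all. Hsp90aa1 had 1185 and 1341 CPM in the romidepsin libraries, 1177, 1575 and 1267 CPM in the saline libraries, and 1308, 1383 and 1207 CPM in the wild-type libraries, with the same libraries at the extremes. Their saline means were 0.961-fold (95% interval 0.822 to 1.12) and 1.03-fold (0.882 to 1.21) of wild type. Hsp90ab1 averaged 1653, 1607 and 1607 CPM in the romidepsin, saline and wild-type groups. The Hsp110 genes Hspa4l and Hsph1, which exchange nucleotide on Hsp70, stood at 0.975-fold (0.850 to 1.12) and 0.910-fold (0.765 to 1.08) of wild type in the saline group.

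The small heat shock proteins hold unfolding proteins in solution without using ATP. Hspb1 (Hsp27) had 8.57 and 11.9 CPM in the romidepsin libraries, 7.93, 6.29 and 4.62 CPM in the saline libraries, and 5.64, 11.1 and 15.9 CPM in the wild-type libraries. Wild type 1 lay inside the saline range (saline against wild type -0.76, SE 0.33, adjusted p = 0.573, and -0.39 without wild type 3). Cryab (alpha-B crystallin), which oligodendrocytes express strongly, had 53.3 and 57.6 CPM in the romidepsin libraries, 51.8, 53.4 and 69.0 CPM in the saline libraries, and 54.5, 81.9 and 79.3 CPM in the wild-type libraries (saline against wild type -0.32, SE 0.15, adjusted p = 0.6003, and -0.48 without wild type 1). The 3 highest Cryab values, in wild type 2, wild type 3 and saline 3, were those of the 3 libraries with the most oligodendrocyte marker RNA: the 10 markers, all above 0, summed to 3304 and 3798 CPM in the romidepsin libraries, 3750.0, 2996 and 5516 CPM in the saline libraries, and 3063, 5004 and 4897 CPM in the wild-type libraries. The part of these cells in the Cryab values was not tested, and 19.5% of Cryab's exonic bases overlap Hspb2, itself at 0 to 0.758 CPM.

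Cochaperones and heat shock factors filled out the cytosolic group. Chordc1, a cochaperone of Hsp90, had 59.2 and 79.6 CPM in the romidepsin libraries, 63.6, 80.4 and 54.9 CPM in the saline libraries, and 68.9, 90.9 and 80.1 CPM in the wild-type libraries. Values overlapped through saline 2 (saline against wild type -0.27, SE 0.15, adjusted p = 0.652; -0.43 without saline 2, -0.17 without wild type 2 and -0.16 without saline 3). Hsf1 had 38.9 and 38.0 CPM in the romidepsin libraries, 34.2, 30.4 and 33.0 CPM in the saline libraries, and 35.0, 39.99 and 35.2 CPM in the wild-type libraries. All saline values of Hsf1 lay below all the others (saline against wild type -0.17, SE 0.09, adjusted p = 0.636, and -0.11 without wild type 2). Hsf2, a related factor active in development, had 22.8 and 24.7 CPM in the romidepsin libraries, 23.7, 28.7 and 24.0 CPM in the saline libraries, and 24.1, 23.0 and 24.4 CPM in the wild-type libraries. Only saline 2 stood out there. Bag3, which steers Hsp70 clients to autophagy, averaged 7.46, 6.89 and 8.21 CPM in the romidepsin, saline and wild-type groups.

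The mitochondrial chaperonin folds proteins of the matrix. Hspe1 (Hsp10), the lid of the chaperonin, had 45.8 and 47.4 CPM in the romidepsin libraries, 50.1, 52.3 and 43.5 CPM in the saline libraries, and 46.7, 50.6 and 52.8 CPM in the wild-type libraries. Hspd1 (Hsp60), its barrel, averaged 181, 184 and 174 CPM in the romidepsin, saline and wild-type groups. For saline against wild type the folds were 0.974 (95% interval 0.852 to 1.11) for Hspe1 and 1.06 (0.935 to 1.20) for Hspd1.

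**Figure D5:**
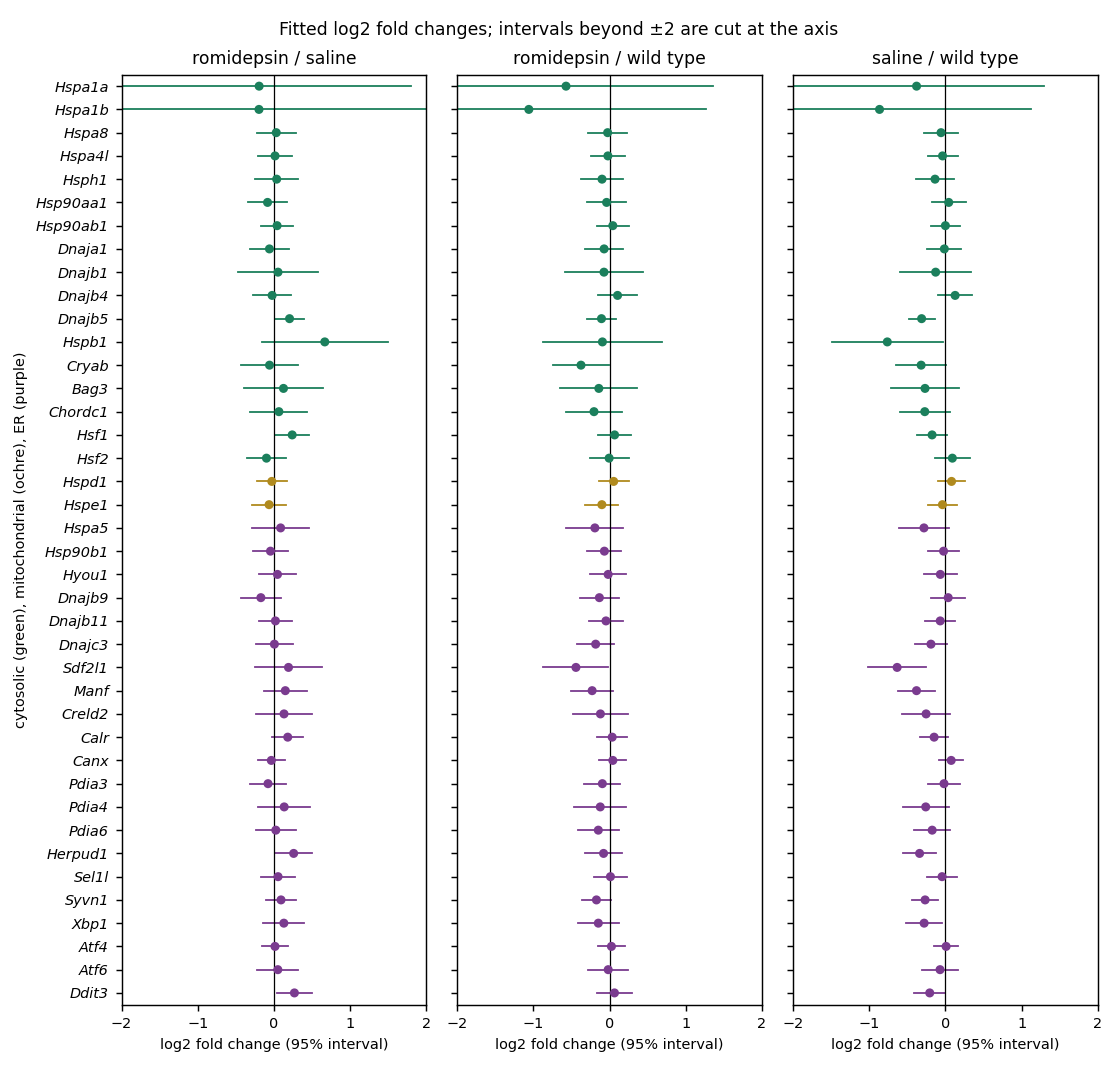
Fitted log2 fold changes (points) with 95% intervals (lines) of the 40 genes (rows), for romidepsin over saline, romidepsin over wild type and saline over wild type from left to right, with intervals beyond 2 in either direction cut at the axis. In the right panel 18 of 21 ER points (purple) lie left of 0, and the intervals of Hspa1a and Hspa1b are the widest in every panel.

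In the romidepsin group against the saline group, ER genes were more often higher, by small amounts, and none passed the test. These folds share the saline libraries with the comparison above, so low saline values enter both. Of the 21 ER genes, 17 were higher in the romidepsin group (median log2 fold change 0.05, against -0.0029 over all tested genes), and of the 17 cytosolic genes 10 were higher (median 0.03). With edgeR 0 of 40 genes passed, as 0% of all tested genes did, and 0 passed with DESeq2 or limma-voom; at an unadjusted p under 0.05, 4 of the 40 did (10%, all higher), against 3.26% of all tested genes. Both romidepsin values lay above all saline values in 7 of the 40 genes (17.5%, against 10.8% of all tested genes) and below in 1 (2.5%, against 10.2%). The ER median was -0.02 without romidepsin 2, 0.14 without romidepsin 1 and 0.12 without saline 2, and the cytosolic median was -0.12 without romidepsin 2, 0.13 without romidepsin 1, 0.15 without saline 2 and -0.04 without saline 1 or saline 3.

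The genes with the smallest p were Ddit3 (log2 fold change 0.27, SE 0.11), Herpud1 (0.26, SE 0.11), Hsf1 (0.24, SE 0.10) and Dnajb5 (0.20, SE 0.09), each with both romidepsin values above all saline values and an adjusted p of 1.00. Hspb1, at 0.67 (SE 0.37), Creld2 and Syvn1 were also higher in both romidepsin libraries than in every saline library, and 0.67 became 0.41 without romidepsin 2. For Calr the log2 fold change was 0.18 (SE 0.09) and for Manf 0.15 (SE 0.13), with overlapping values; Calr stood at 0.07 without romidepsin 2 and 0.29 without romidepsin 1, and Manf at -0.035 without romidepsin 2 and 0.31 without romidepsin 1. Dnajb9 was the only gene of the set with both romidepsin values below all saline values (-0.17, SE 0.12). Hsf2 (-0.10, SE 0.12) and Hsp90aa1 (-0.08, SE 0.12) overlapped between the groups, and Hsp90aa1 turned to 0.048 without saline 2. All of these had an adjusted p of 1.00.

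In the romidepsin group against wild type, most genes stood lower, again with none passing. Of the 21 ER genes 16 were lower in the romidepsin group (median log2 fold change -0.10, against 4.2e-05 over all tested genes), and of the 17 cytosolic genes 14 (median -0.07). With edgeR 0 of the 40 passed, against 0.00675% of all tested genes, and 0 with DESeq2 or limma-voom; 2 had an unadjusted p under 0.05 (5%, against 3.24% of all tested genes). In 2 of the 40 genes (5%, against 9.08% of all tested genes) both romidepsin values lay below all wild-type values, and in 1, Dnajb4, above (2.5%, against 9.34%). The ER median was 0.0088 without wild type 2, 0.0050 without romidepsin 1, -0.17 without wild type 3 and -0.17 without romidepsin 2; the cytosolic median was 0.05 without romidepsin 1 and -0.18 without romidepsin 2.

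The 2 genes that lay below every wild-type value were Sdf2l1 (-0.44, SE 0.20, and -0.20 without wild type 2) and Syvn1 (-0.17, SE 0.09). Among the other ER genes with the smallest p, Manf stood at -0.23 (SE 0.13), Dnajc3 at -0.18 (SE 0.11) and Pdia6 at -0.15 (SE 0.12). The cytosolic and mitochondrial genes with the smallest p were Cryab at -0.38 (SE 0.17), Chordc1 at -0.21 (SE 0.17), Dnajb5 at -0.11 (SE 0.09), Hspa1b at -1.06 (SE 0.95) and Hspe1 at -0.10 (SE 0.10). Each of these 10 had an adjusted p of 0.999. Oligodendrocyte markers were lower in the romidepsin group in 10 of 10, and their part in the Cryab value was not tested.

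Genes outside the set that work in the same pathways came from lists that, like the set, were chosen with earlier results of these data known. Some of these lists were mostly higher in the saline group and others were more evenly divided. Of all tested genes, 48.7% were lower. Of 35 other ER folding genes tested, 24 were higher in the saline group and 11 lower, relative to wild type (median log2 fold change 0.04), with the disulfide isomerase gene Tmx4 at 269.9 ± 14.4 and 232 ± 15.3 CPM and the oxidase gene Ero1lb at 23.8 ± 0.266 and 27.9 ± 1.56 CPM (SD, n = 3 each). Of 26 other ER-associated degradation genes, 11 were higher and 15 lower (median -0.03), with Derl2, which encodes a Derlin protein of that machinery, at 25.0 ± 2.06 and 33.2 ± 6.44 CPM, with overlapping values, and the ubiquitin ligase gene Rnf139 at 36.3 ± 2.12 and 31.0 ± 0.543 CPM, with all saline values above all wild-type values. Of 36 genes for ER translocation and secretion 24 were higher and 12 lower (median 0.05), and of 39 genes for the ER stress sensors and the integrated stress response 20 were higher and 19 lower (median 0.02). In the cytosol, 16 of 37 other chaperone and cochaperone genes were higher and 21 lower (median -0.01), and 12 of 14 genes for the CCT chaperonin and prefoldin, which fold actin and tubulin, were higher and 2 lower (median 0.06). Of 13 other mitochondrial chaperone and protease genes 6 were higher and 7 lower. None of these genes passed the test in this comparison or in the other 2. No difference between these lists and the set was tested.

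In the romidepsin group against the saline group, the other ER-associated degradation genes were higher in 15 of 26, with Derl2 at 32.6 ± 3.28 CPM in the romidepsin libraries (SD, n = 2), above all saline values. Of the 39 genes for ER stress sensors and the integrated stress response, 17 were higher and 22 lower. Among them Slc7a5, an amino acid transporter gene that Atf4 activates, stood at 71.6 ± 4.41 CPM in the romidepsin group (n = 2), 52.0 ± 5.76 CPM in the saline group (n = 3) and 59.2 ± 1.24 CPM in wild type (n = 3), with both romidepsin values above all others and an adjusted p of 1.00 against saline. Ppp1r15a (GADD34), which helps restore translation after stress, lay the other way, at 10.8 ± 0.0953 CPM in the romidepsin group (n = 2) and 13.0 ± 1.40 CPM in the saline group (n = 3), with both romidepsin values below all saline values (log2 fold change -0.27, adjusted p = 1.00). Fkbp5, an Hsp90 cochaperone gene that glucocorticoids activate, stood at 33.0 ± 8.85, 22.6 ± 3.21 and 26.3 ± 2.31 CPM in the romidepsin, saline and wild-type groups, with the romidepsin values above the saline values (log2 fold change 0.54, adjusted p = 1.00). The other ER folding genes were higher in 15 of 35 and the other cytosolic chaperones in 17 of 37.

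Markers of other cell types were set beside these values, and none of the endothelial, meningeal or olfactory markers passed the test in any comparison. Against wild type, all 10 endothelial markers were lower in the saline group, 7 of them with no overlap (6.36% of all tested genes lay so); they summed to 261 and 208 CPM in the romidepsin libraries, 235, 164 and 204 CPM in the saline libraries, and 242, 257 and 297 CPM in the wild-type libraries. Meningeal fibroblast markers were higher in 10 of 10 in the saline group, summing to 191 and 129 CPM in the romidepsin libraries, 252, 212 and 111 CPM in the saline libraries, and 108, 102 and 167 CPM in the wild-type libraries, which overlap. Olfactory bulb and septum markers were higher in 9 of 9 tested, summing to 45.7 and 47.5 CPM, 66.6, 98.7 and 93.1 CPM, and 44.1, 40.7 and 84.7 CPM in the romidepsin, saline and wild-type libraries. In the romidepsin group against the saline group, 9 of 9 olfactory markers were lower, 7 of them with no overlap (77.8%, against 10.2% of all tested genes). Endothelial markers were higher there in 10 of 10, with no overlap in 1 (10%, against 10.8%). Meningeal markers were lower in 10 of 10, with no overlap in 1 (10%, against 10.2%). No endothelial, meningeal or olfactory marker was at 0 in all libraries. The part of such cells in the values of Hspb1, of the ER genes or of any other gene of the set was not tested. Immediate early genes, which neuronal activity induces, were higher in 16 of 23 in the saline group against wild type and lower in 20 of 23 in the romidepsin group against the saline group, with 0 passing.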

How the data were processed

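The 8 libraries were made from poly(A) RNA of prefrontal cortex. The authors deposited raw read counts per gene, 1 table per library; per the submitters' processing notes the tools were bcl2fastq 2.17.1.14, TopHat2 2.1.1 and HTSeq 0.6.1 on mm10. The annotation and the strand setting were not given in the sources used here.

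The 24420 genes common to all tables were fitted together with edgeR 4.0.16 (R 4.3.3) after its expression filter, which left 14809, with TMM scaling, robust quasi-likelihood tests and Benjamini-Hochberg adjustment over all tested genes. CPM were computed from the deposited counts with TMM library sizes. The common coefficient of variation was 9.33%. The same steps were tested on simulated data. No 2 libraries of the same group agreed within sampling noise. The comparisons share libraries: saline against wild type and romidepsin against saline share the saline libraries, and romidepsin against wild type shares libraries with both.

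The 40 genes, the lists and the tests were chosen with earlier results of these data known. Fold changes are given for the 5 cytosolic or mitochondrial and the 5 ER genes with the smallest p per comparison, and values in every library for these and for Hspa1a, Hspa1b, Hspa5, Hsp90b1, Hspa8, Ddit3 and Xbp1. From pathway lists, at most the 2 genes with the smallest p per comparison were named. Promoters came in order of p among genes matching a long motif; Chordc1, next in that order, was not shown because its matches lie at or after the start. Gene coordinates are those of GENCODE vM21 on GRCm38, promoters those of RefSeq. Alternatives were DESeq2 1.42.0, limma-voom (limma 3.58.1), other scalings and filters, fits of 2 groups, a replicate block, removal of Rn45s and removal of each library. No protein sequences were used here.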

Additional observations from a re-analysis of the deposited data

How the results depend on the processing

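Under 18 alternatives, 730 of 756 recomputed values kept their direction and their side of the threshold or moved little. For class medians, moving little meant by less than the SD of library medians within groups (0.170 cytosolic, 0.119 ER). All 108 recomputed medians counted as moving little, although some changed sign. The romidepsin medians are smaller than these limits, so the count cannot show that their direction held. Of 540 values for named genes, 536 kept their direction and their side of the threshold. None of these genes passed in the main fit, so staying on that side was likely from the start. Size was not judged: Sdf2l1 counted as kept when it went from -0.63 to -0.39 without wild type 2. The count of genes called in the saline group against wild type, 1 of all tested, was 31 with DESeq2, 12 without a filter, 2 with only these groups fitted and 4 with the replicate block, and ranged from 1 to 54 over removals of 1 library, with 54 without wild type 3. Genes of the set called there ranged from 0 to 1, the 1 being Dnajb5 without wild type 3 (-0.39). In romidepsin against saline the count of 0 ranged from 0 to 3 over such removals; Hsp90aa1 (-0.08) ranged from -0.18 to 0.048, at 0.048 without saline 2 and 0.0024 without romidepsin 1, and Manf (0.15) from -0.035 without romidepsin 2 to 0.31 without romidepsin 1. In romidepsin against wild type the count of 1 was 4 with DESeq2, 2 with limma-voom, 0 with library totals, 0 with upper quartile scaling, 2 without a filter and 0 with the replicate block, and ranged from 0 to 3 over removals. The cause of these changes was not tested. No scaling moved the median of all genes by over 0.1. Deviations of same-numbered libraries from their group means correlated at -0.18, 0.02 and -0.04 across genes for saline and wild type. They correlated at 0.10 and 0.06 for romidepsin and saline, and at -0.03 and 0.08 for romidepsin and wild type. Differently numbered saline and wild-type libraries gave -0.16 to 0.24. With 2 romidepsin libraries, the deviations of romidepsin 1 mirror those of romidepsin 2. Pairing by replicate number was therefore neither shown nor excluded. With the block, no gene of the set was called in any comparison. Hspa1a and Hspa1b, at 19 to 300 counts for Hspa1b, are limited by spread between libraries.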
